A study of Mus musculus with 6 samples.

Results

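The 5 genes Ly6a, Cd34, Slamf1, Cd48 and Procr, which code for surface proteins used to sort mouse blood stem cells, were followed in CpG methylation data from bone marrow LSK cells. Members were all 1 kb windows with a listed CpG in 4 stretches of mm9: chr15:74810001-74845000 for Ly6a, chr1:196745001-196810000 for Cd34, chr1:173590001-173750000 for the neighbours Slamf1 and Cd48, and chr2:155565001-155595000 for Procr. These gave 285 of the 2335885 autosomal windows with a CpG, namely 35, 61, 159 and 30, holding 2273 of 19595361 autosomal CpGs. The stretches were set by gene and position, and the genes were chosen with earlier results of these data known. Wild-type LSK cells (WT, 3 samples) were compared with LSK cells of Tet2/3 DKO mice (DKO, 3 samples), which lack Tet2 and Tet3, 2 of the 3 TET dioxygenases that oxidise 5-methylcytosine. The labels name each sample a biological replicate and do not tie it to a single animal. The sources used here do not give alleles, the driver of deletion or ages. The comparison asks what the loss of Tet2 and Tet3 does to methylation in these cells. All samples came from marrow depleted of lineage-positive cells and sorted on c-Kit and Sca-1.

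LSK cells are a mixture of long-lived stem cells and multipotent progenitors, and surface proteins separate them. Ly6a codes for Sca-1, which defines the gate together with c-Kit, so its presence on the cells is part of the sort and no finding. Cd34 is a sialomucin that is low on the most quiescent adult mouse stem cells and present on most other LSK cells. Slamf1 (CD150) and Cd48 are receptors of the SLAM family; stem cells carry the first and lack the second, and most multipotent progenitors carry the second. Procr is the endothelial protein C receptor, high on stem cells. A promoter in use is generally free of methylation at its CpGs, and methylation near such promoters and enhancers differs between blood cell types. In bulk DNA a change in the mix of cells and a change of methylation within cells cannot be told apart, and this holds for every difference below. Bisulfite reads 5-methylcytosine and 5-hydroxymethylcytosine alike, so each level is the sum of both.

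The stretches just before the transcription starts are shown because the levels at their CpGs are compared between the genotypes below. They are the 250 bases upstream of the RefSeq start (table build GRCm38.p6), all on the + strand, 5′ to 3′, with each CpG in capitals. Their mm9 positions were found by matching the spacing of their CpGs to the CpGs measured here. They lie at chr1:196764765-196765014 for Cd34, chr1:173697013-173697262 for Slamf1, chr1:173611873-173612122 for Cd48 and chr2:155576703-155576952 for Procr. Slamf1 was matched within its own stretch on 4 CpGs.
Procr: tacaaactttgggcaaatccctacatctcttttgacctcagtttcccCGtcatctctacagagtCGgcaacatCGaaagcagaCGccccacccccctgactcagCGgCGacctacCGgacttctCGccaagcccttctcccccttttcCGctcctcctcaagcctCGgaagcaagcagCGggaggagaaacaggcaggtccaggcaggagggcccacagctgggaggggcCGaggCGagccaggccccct
Cd34: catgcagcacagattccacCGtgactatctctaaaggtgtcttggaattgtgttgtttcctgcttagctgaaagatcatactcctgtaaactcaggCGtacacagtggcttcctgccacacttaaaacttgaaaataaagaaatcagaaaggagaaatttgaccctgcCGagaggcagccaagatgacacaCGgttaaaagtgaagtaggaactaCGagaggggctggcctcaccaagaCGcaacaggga
Slamf1: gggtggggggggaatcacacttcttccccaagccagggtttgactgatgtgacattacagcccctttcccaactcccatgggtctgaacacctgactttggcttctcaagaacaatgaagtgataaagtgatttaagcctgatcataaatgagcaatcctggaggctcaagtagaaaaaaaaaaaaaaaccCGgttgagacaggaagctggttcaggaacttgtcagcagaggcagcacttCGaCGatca
Cd48: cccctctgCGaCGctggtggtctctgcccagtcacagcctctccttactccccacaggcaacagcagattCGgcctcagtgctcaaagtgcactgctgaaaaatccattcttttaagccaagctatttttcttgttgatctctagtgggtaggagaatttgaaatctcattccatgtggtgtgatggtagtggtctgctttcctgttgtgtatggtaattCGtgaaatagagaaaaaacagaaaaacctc

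The 4 sequences differed in CpG content. Procr held 13 CpGs at 61.6% G and C, Cd34 held 6 at 46.4%, Cd48 held 4 at 46.0% and Slamf1 held 3 at 47.2%. With 50 bases after the start added, motifs on either strand were few. GATAAG, the core bound by GATA factors, occurred in Cd34 at +3 from the start and is held by 7.44% of the 32851 promoters in the same table. CAGCTG, an E-box, began at -34 from the start in Procr and at +28 in Slamf1 (16.3% of promoters). TGTGGT, a RUNX core, began at -76 from the Cd48 start (16.8%), and GGAAGT, an ETS core, at +5 (23.8%). GGGCGG, a GC box held by 35.7% of promoters, was in none of the 4. These are matches of letters in this window, described as such.

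At the starts of Cd34, Slamf1 and Procr nearly every read was unmethylated in both genotypes, whereas Cd48 was partly methylated. A level is the share of methylated reads among all reads, summed over CpGs. Over 300 bases (250 before and 50 after the start), Cd34 stood at 0, 0 and 0% in WT replicates 1, 2 and 3, and at 0, 1.82 and 0% in the DKO replicates in that order, from 26 to 55 reads a sample. Procr stood at 0, 0 and 0% in WT and at 0, 5.05 and 0% in DKO (31 to 99 reads). Slamf1 stood at 0, 0 and 6.67% in WT and at 0, 0 and 0% in DKO (18 to 49 reads). In each of these 3 genes a single sample was above 0 and the groups overlapped. The exact permutation test gave p = 1.0 for each of them; with 3 samples against 3 it cannot go below p = 0.1. A count of 0 of the 90 WT reads at Cd34 allows a level of up to 3.33%, 0 of 141 WT reads at Procr up to 2.13%, and 0 of 106 DKO reads at Slamf1 up to 2.83%. These limits cover counting error only.

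The Cd48 promoter held the highest level of the 4. Its 7 CpGs over the 300 bases stood at 19.4, 12.5 and 0% in WT and at 32.8, 14.3 and 26.9% in DKO (24 to 58 reads). WT replicate 3 was the lowest sample and DKO replicates 1 and 3 the highest, and DKO replicate 2 lay between WT replicates 1 and 2. Means of 10.7% ± 9.85 for WT and 24.7% ± 9.44 for DKO (SD, n = 3) gave a difference of 14.0 ± 7.88 points (SE; exact permutation p = 0.2). Without WT replicate 3 the difference was 8.68 points. Single CpGs differed along the promoter. The 4 CpGs from -30 to +45 (in bases from the start, negative upstream) held 0 methylated reads in WT, and in DKO 2 of 19 reads at the last of them and 0 at the other 3. The CpG at -180 was methylated in 2 of 7 WT reads and 18 of 28 DKO reads. Those at -239 and -242 stood at 3 of 11 and 5 of 14 reads in WT and at 12 of 27 and 7 of 27 in DKO, pooled over samples. In the printed Cd48 sequence the methylated reads thus lay at the first 3 CpGs, and none at the last. From upstream on, these 3 CpGs had 14, 11 and 7 reads in WT and 27, 27 and 28 in DKO. The CpG at -30 had 25 and 22. The level over the 300 bases sums reads, so this uneven coverage enters the difference of 14.0 points, and its part was not tested.

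In the upstream flank of the Procr promoter some CpGs had more methylated reads in DKO. The CpG at -382 was methylated in 0 of 15 WT reads and 9 of 29 DKO reads; 7 of those 9 came from DKO replicate 2 and 2 from replicate 3. The CpGs at -424 and -446 stood at 3 of 13 and 4 of 15 reads in WT and at 16 of 22 and 14 of 23 in DKO, with 0 of the 3 and 5 reads of DKO replicate 3 methylated. Closer in, at -257 and -263, WT had 2 of 20 and 1 of 21 methylated reads and DKO had 0 of 23 and 0 of 25. The CpG beside them at -252 went the other way, with 0 of 20 in WT and 3 of 26 in DKO. Over 500 bp either side of the start the level was 0, 1.84 and 5.56% in WT and 12.1, 10.3 and 3.33% in DKO. DKO replicates 1 and 2 were above every WT sample and DKO replicate 3 was inside the WT range (difference 6.13 ± 3.14 points, exact permutation p = 0.2). Over the same distance Slamf1 stood at 23.3, 21.6 and 20.0% in WT and at 29.2, 28.7 and 23.1% in DKO, with DKO replicate 3 below WT replicate 1 (exact permutation p = 0.2). Cd48 stood at 35.1, 31.3 and 30.8% in WT and at 44.0, 26.6 and 37.5% in DKO, with the groups overlapping (exact permutation p = 0.6). Cd34 was at 0% in 5 samples and at 0.851% in DKO replicate 2.

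**Figure D1:**
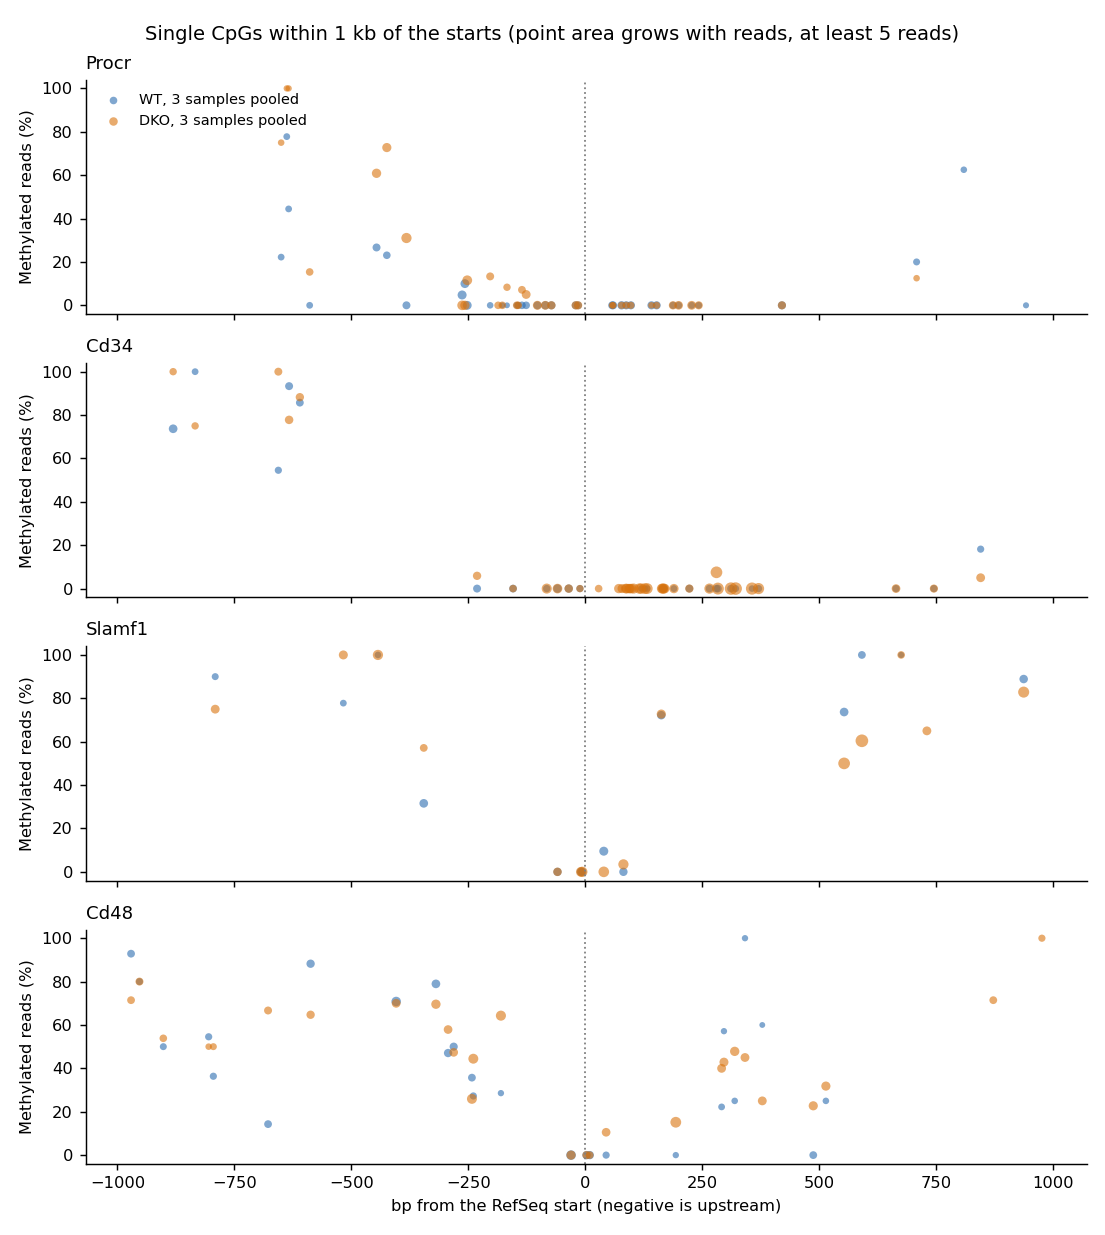
Methylated reads at single CpGs (percent, y axis) against distance in bp from the RefSeq start (x axis, negative upstream) for Procr, Cd34, Slamf1 and Cd48. Each point pools the 3 samples of a group (blue WT, orange DKO), its area grows with the reads, and CpGs with fewer than 5 reads in a group are left out; the 3 printed Slamf1 CpGs and the 6 CpGs of Cd34 sit at or near 0%, while the Cd48 CpGs from -180 upstream are partly methylated.

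Promoters in general were measured the same way for comparison. Of the 9968 genes with a placed promoter and at least 20 reads in every sample, 87.7% had a mean level under 10%, as Procr and Cd34 did, 6.33% had 10 to 80%, as Cd48 did, and 5.98% had 80% or more. Over all of them the median level was 0.409% and the median difference 0 points. The DKO mean was higher in 42.9%, where equal means count as not higher. All DKO samples exceeded all WT samples in 3.8% and were below them in 0.722%. The first of these separations occurred in 2.51% of the promoters under 10%, in 18.7% of those at 10 to 80% and in 7.05% of the rest. None of the 3 member promoters with 20 reads, nor Slamf1, was among them. The 631 promoters at 10 to 80% had a median difference of 5.04 points. The 3 promoters most like Cd48 over the 6 samples, by mean absolute difference, were Pcnx2 (5.09 points), Rbakdn (5.28 points) and 4930511A02Rik (5.52 points). In Pcnx2 every DKO sample was above every WT sample, at 19.4, 8.33 and 7.5% in WT and 30.2, 28.6 and 25.0% in DKO; in the other two the groups overlapped.

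The samples as a whole set the scale for what follows. The mean depth was 3.46 to 3.56 reads per CpG in WT and 4.09 to 5.46 in DKO, so WT levels carry more counting error. A window at 50% from 20 separate reads has a 95% Wilson interval of 29.9 to 70.1%, and from 100 reads 40.4 to 59.6%. Reads that cover several CpGs count more than once, so these intervals can be too narrow. Autosomal CpGs averaged 80.8% ± 0.314 (SD, n = 3) in WT against 81.6% ± 0.826 in DKO, with an exact permutation p of 0.3. Mitochondrial CpGs, a gauge of incomplete bisulfite conversion, read 1.21 to 1.37% in WT and 1.53 to 1.86% in DKO. As a check of the labels, 4 windows of Tet2 and 3 of Tet3 lost their reads in DKO: Tet2 had 109 to 165 reads in each WT sample and 0 in each DKO sample, and Tet3 had 169 to 231 in WT and 14, 0 and 0 in DKO.

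Taken whole, the Procr stretch and the Slamf1 and Cd48 stretch had higher levels in every DKO sample than in any WT sample, and the Ly6a and Cd34 stretches did not separate. Procr stood at 68.2, 62.5 and 66.0% in WT and at 76.4, 70.3 and 73.4% in DKO, means of 65.6% ± 2.84 and 73.4% ± 3.03 (SD, n = 3), a difference of 7.77 ± 2.40 points. The Slamf1 and Cd48 stretch stood at 85.7, 84.9 and 85.02% in WT and at 87.7, 87.4 and 88.5% in DKO, a difference of 2.65 ± 0.418 points. Both reached p = 0.1, the lowest an exact permutation test of this size can give. Ly6a stood at 65.5, 66.5 and 73.4% in WT and at 73.3, 72.5 and 78.7% in DKO. WT replicate 3 lay inside the DKO range (6.35 ± 3.18 points, exact permutation p = 0.3). Cd34 was the one stretch with a lower DKO mean, at 56.9, 55.6 and 60.3% in WT and 53.8, 48.4 and 58.1% in DKO, with DKO replicate 3 inside the WT range (-4.17 ± 3.15 points, exact permutation p = 0.3). Without DKO replicate 2 this difference was -1.64 points, and without DKO replicate 3 it was -6.52. In order of level the Slamf1 and Cd48 stretch was highest and Cd34 lowest in every sample. Ly6a and Procr lay between them and changed places among the samples of both genotypes, so these 2 neighbours in the order were not separated.

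The direction at Cd34 turned with the CpGs used and the weight of each. Its 5 low windows had a mean level under 50%, and they held 35.2, 33.7 and 30.7% of its reads in WT and 38.8, 46.6 and 32.4% in DKO. The window at the start itself, chr1:196765001-196766000 with 30 CpGs, had 78, 120 and 41 reads in WT and 243, 445 and 142 in DKO. Relative to the depth of the sample this was 0.734, 1.10 and 0.386 times in WT and 1.59, 2.65 and 1.13 times in DKO. On the 217 Cd34 CpGs with reads in all 6 samples the difference was -2.08 ± 3.50 points with reads summed. With each of these CpGs counted once, Cd34 stood at 56.6, 54.5 and 59.9% in WT and 58.6, 58.4 and 57.7% in DKO, and the difference turned to 1.26 ± 1.60 points (exact permutation p = 0.6). Taken the same way, the difference was 2.69 points with reads summed and 2.72 with each CpG counted once for the Slamf1 and Cd48 stretch, with the groups apart in both. For Procr it was 5.73 points with reads summed over the 205 shared CpGs, where WT replicate 1 lay above DKO replicate 2 (exact permutation p = 0.2), and 8.10 with each counted once, where the groups were apart. On the 148 shared Ly6a CpGs the groups were apart both with reads summed (7.49 ± 2.86 points) and with each counted once, at 70.4, 68.8 and 68.2% in WT and 74.1, 78.0 and 74.4% in DKO (6.37 ± 1.42 points, exact permutation p = 0.1 for both). Outside the windows under 50%, Ly6a stood at 83.0, 83.3 and 83.1% in WT and at 86.5, 90.3 and 90.3% in DKO, also apart. On that measure Procr (4.39 points) and the Slamf1 and Cd48 stretch (2.60 points) were apart too. Cd34 then had the higher DKO mean, at 81.9% in WT and 84.6% in DKO, with the groups overlapping (2.76 ± 1.64 points, exact permutation p = 0.2).

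**Figure D2:**
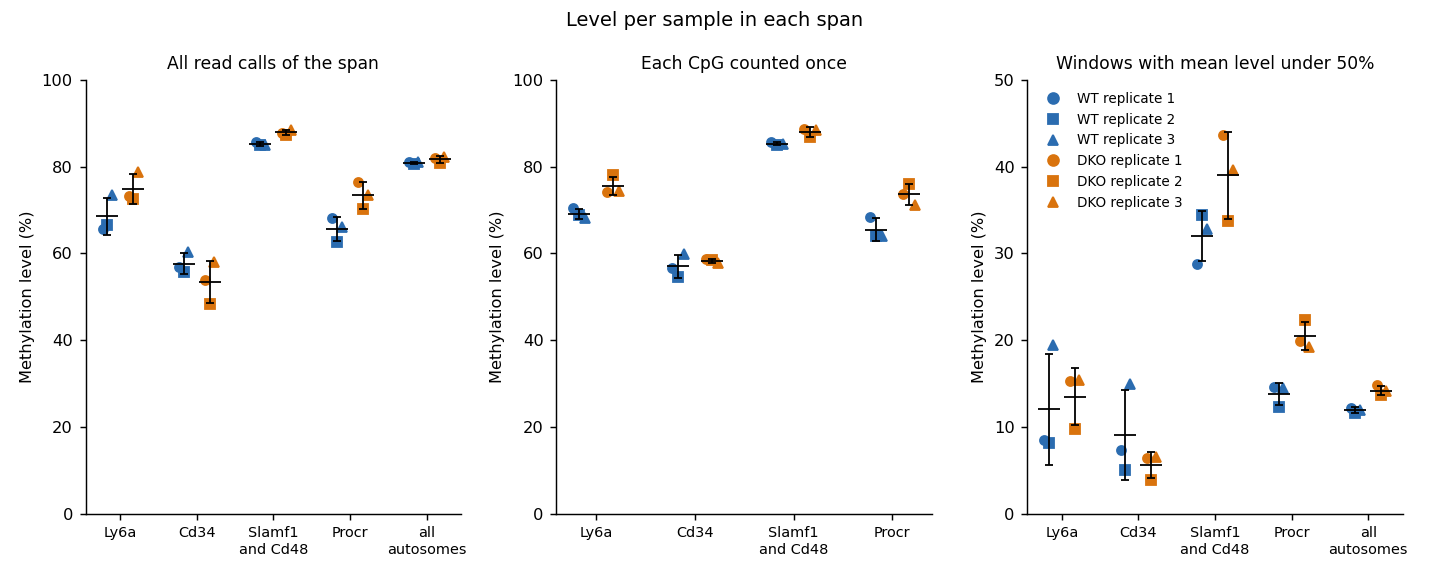
Methylation level (percent, y axis) of each stretch (x axis) in each sample, with all reads summed (left), each CpG counted once (middle) and over the windows with a mean level under 50% (right, where the y axis ends at 50%); lines show the mean and SD of 3 samples. Procr and the Slamf1 and Cd48 stretch separate the genotypes in the left and middle panels, while Cd34 changes direction between them.

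The 4 stretches were also compared with each other. For each of the 6 pairs, the difference between 2 stretches was taken within each sample and compared between genotypes. Cd34 minus Procr moved by -11.95 points from WT to DKO, Ly6a minus Cd34 by 10.5, Cd34 minus the Slamf1 and Cd48 stretch by -6.82, and the latter minus Procr by -5.13. In these 4 pairs the samples did not overlap between genotypes, and each had an exact permutation p of 0.1, or 0.15 adjusted over the 6 pairs. Ly6a minus the Slamf1 and Cd48 stretch moved by 3.70 points (exact permutation p = 0.3) and Ly6a minus Procr by -1.43 points (exact permutation p = 0.7). No pair passed 0.05, which this design cannot reach, and the read weighting described for Cd34 enters its 3 pairs.

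**Figure D3:**
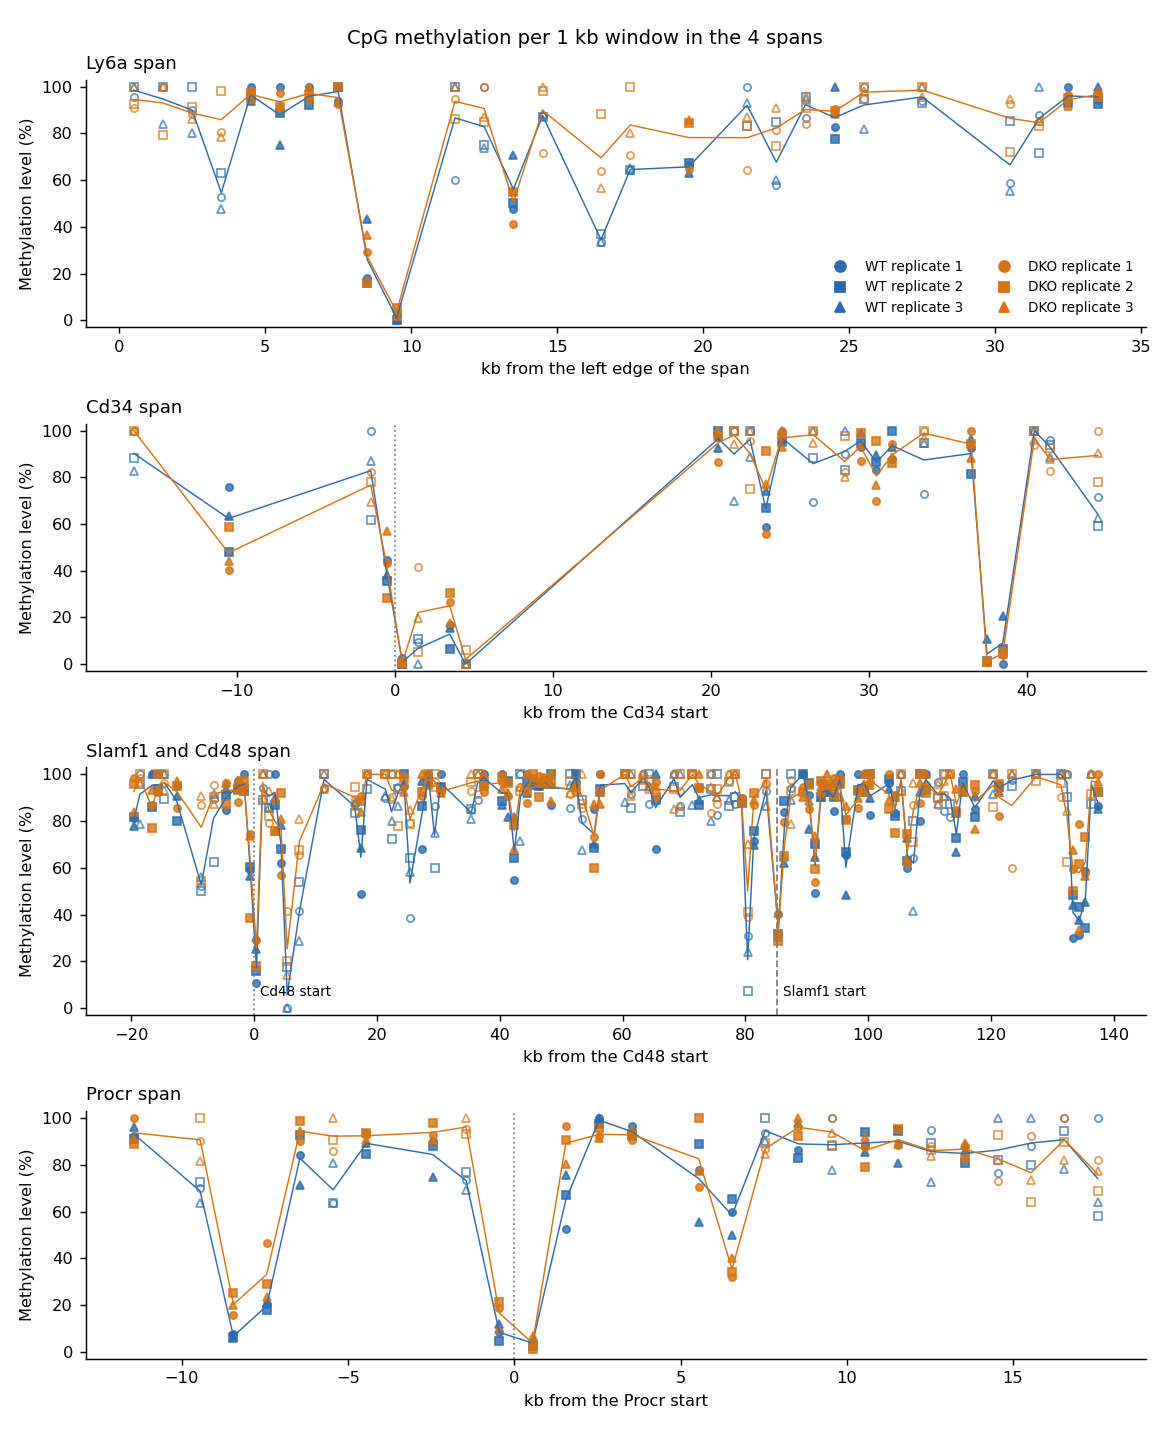
Methylation level (percent, y axis) of 1 kb windows along each stretch (x axis, kb from the start named on the axis, or from the left edge for Ly6a) in the 6 samples; filled symbols have at least 20 reads in every sample, open symbols 10 to 19 in the lowest, and the lines join the group means, also across windows not shown. Dips near 0% mark the Cd34 and Procr starts, and the orange DKO line runs above the blue WT line at the flanks of the Procr dip and in the dip 8.45 kb upstream of Procr.

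Windows were then examined singly. Of the 285, 99 had 3 or more CpGs and no sample under 20 reads and could be tested: 11 at Ly6a, 13 at Cd34, 58 at Slamf1 and Cd48 and 17 at Procr. A quasi-binomial test was fitted to all 774732 such autosomal windows, and a window was called when its adjusted p was under 0.05 and its group means differed by at least 10 points. Of the 99, 1 was called higher in DKO and 0 lower, against 0.49% of all tested windows called higher, 0.00723% called lower and 0.497% called either way. At an unadjusted p under 0.05 there were 10 higher and 5 lower, against 7.32% and 1.95% of all windows. All DKO samples exceeded all WT samples in 12 of the 99 and were below them in 6, against 9.05% and 3.75%. The DKO mean was higher in 59 of 99 (59.6%), against 58.2% of all windows. The median difference was 0.956 points in the 99 and 0.927 in all. The share with a higher DKO mean and the median difference were near the background. Whether the other shares differ from it was not tested.

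The stretches contained more windows of low and intermediate level than the autosomes did. Under 50% there were 16 of the 99 windows (16.2%), against 7.31% of all windows; at 50 to 80% another 16 (16.2% against 10.3%); and 67 stood at 80% or more. Among the 16 lowest, the DKO mean was higher in 10 (68.7% in all such windows), the groups were apart upward in 4 (15.9%) and downward in 1 (2.07%), and 0 were called (1.99% were called higher among all such windows). Among the 16 intermediate windows, the DKO mean was higher in 12 (71.7%), the groups were apart upward in 3 (19.1%) and downward in 0 (2.16%), and the called window was one of them (2.73%). Among the 67 highest, the DKO mean was higher in 37 (55.6%), the groups were apart upward in 5 (7.18%) and downward in 5 (4.1%), and 0 were called (0.0772%). With the minimum lowered to 10 reads, a setting chosen after the data were seen, 183 windows were tested. Of these, 25 were apart upward (7.53% of all windows at that minimum) and 7 downward (4.01%), and 24 had an unadjusted p under 0.05 upward (5.97%) and 4 downward (2.32%).

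Of the 2 SLAM receptors, Cd48 had the one called window. It lay 17.4 kb downstream of the Cd48 start, at chr1:173629001-173630000 with 19 CpGs. Its level was 48.7, 76.2 and 68.6% in WT and 90.6, 88.5 and 84.0% in DKO, from 51 to 130 reads a sample. All 3 DKO samples stood above the highest WT sample, and WT replicate 1 was far below the other 2. The mean went from 64.5% ± 14.2 (SD, n = 3) to 87.7% ± 3.39, so the level rose by 23.2 ± 8.44 points (quasi-binomial test across all windows, Benjamini-Hochberg adjusted p = 0.0422). The call did not hold when any 1 sample was left out: without WT replicate 1 the difference was 15.3 points with an adjusted p of 0.506, and over the 6 such fits the adjusted p ran from 0.0859 to 0.506 with the same quasi-binomial test. On its 14 CpGs covered in all 6 samples the difference was 23.3 points. The window over the Cd48 start (chr1:173612001-173613000, 14 CpGs) stood at 10.5, 15.9 and 25.4% in WT and 29.1, 18.1 and 30.2% in DKO, with DKO replicate 2 inside the WT range.

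Windows nearer to Slamf1 than to Cd48 numbered 38 of the 58, with the DKO mean higher in 24; of the 20 nearer to Cd48, 11 had a higher DKO mean. Both are near the 58.2% of all tested windows. Across the Slamf1 start (chr1:173697001-173698000, 10 CpGs) WT stood at 40.4, 31.5 and 30.4% and DKO at 32.3, 28.8 and 40.5%, means of 34.1 and 33.8%. The groups overlapped. At 11.2 kb downstream of the start (chr1:173708001-173709000, 9 CpGs), WT stood at 65.4, 66.7 and 48.5% and DKO at 80.8, 80.4 and 86.5%. The groups were apart by 22.4 ± 6.18 points, and the quasi-binomial test gave an unadjusted p of 0.0113 and an adjusted p of 0.327. At 48.2 kb (chr1:173745001-173746000, 4 CpGs) the level was 30.0, 48.6 and 44.0% in WT and 59.6, 50 and 67.7% in DKO, apart but with DKO replicate 2 above WT replicate 2 by less than the worth of 1 read. In the next window WT stood at 31.1, 43.4 and 37.5% and DKO at 78.6, 61.7 and 33.3%, with DKO replicate 3 inside the WT range. Neither passed the test (quasi-binomial adjusted p of 0.603 and 0.343). The windows 4.76 and 3.76 kb upstream of Slamf1 formed a run, chosen after its values were seen: 60.4, 46.2 and 45.8% in WT and 62.0, 70.6 and 83.3% in DKO over 18 CpGs.

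At Procr, the groups were apart with DKO higher in 4 of 17 tested windows, 3 before the start and 1 after it, and with DKO lower in 2 windows after the start, against 9.05% and 3.75% of all tested windows. Its 5 windows under 50% together stood at 14.6, 12.3 and 14.5% in WT and 19.9, 22.3 and 19.2% in DKO, means of 13.8% ± 1.29 and 20.5% ± 1.61 (SD, n = 3). The groups were apart by 6.66 ± 1.19 points (exact permutation p = 0.1), whereas all 56615 autosomal windows under 50% stood at 11.9% ± 0.310 and 14.2% ± 0.567, 2.26 ± 0.373 points apart. With each CpG counted once the Procr difference was 13.3 points, and with windows shifted by 500 bp it was 10.3. The gap in mitochondrial reads moved the same way, and its part in the result was not tested. The same sum for the low windows of the other stretches overlapped between genotypes: 1.45 points at Ly6a (exact permutation p = 0.8), -3.49 at Cd34 (exact permutation p = 0.4) and 7.0 at Slamf1 and Cd48 (exact permutation p = 0.2). On other settings some of these groups were apart: with each CpG counted once the Ly6a difference was 7.79 points (exact permutation p = 0.1), and with shifted windows the Slamf1 and Cd48 difference was 9.04 points (exact permutation p = 0.1).

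The Procr window under 50% with the lowest p lay 8.45 kb upstream (chr2:155568001-155569000, 27 CpGs). It stood at 7.60, 6.45 and 5.88% in WT and 15.7, 25.2 and 20.0% in DKO, from 79 to 226 reads. The 3 WT samples were close together and every DKO sample was above them. The means were 6.64% ± 0.872 and 20.3% ± 4.78 (SD, n = 3), 13.7 ± 2.80 points apart, and the quasi-binomial adjusted p was 0.0565, short of the threshold. The next window (chr2:155569001-155570000) stood at 20.6, 17.7 and 20.8% in WT and 46.7, 29.0 and 23.6% in DKO, again apart, with DKO replicate 3 closest to WT. Together with the window before them, these 3 kb and 55 CpGs formed a run, chosen after its values were seen. The run stood at 17.2, 19.2 and 16.2% in WT and 39.1, 40.3 and 33.8% in DKO, from 157 to 476 reads. The window before them was under the 20-read minimum, with 10, 33 and 11 reads in WT and 42, 88 and 44 in DKO. Its level was high, at 70.0, 72.7 and 63.6% in WT and 90.5, 100 and 81.8% in DKO. The run sums reads, so this uneven coverage enters its levels, and its part was not tested.

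Around the Procr start the 2 adjoining windows overlapped between genotypes. The one just upstream (chr2:155576001-155577000, 23 CpGs) stood at 8.43, 4.81 and 11.7% in WT and 18.7, 21.3 and 9.78% in DKO; DKO replicate 3 was inside the WT range. The window just downstream (chr2:155577001-155578000, 15 CpGs) stood at 4.35, 2.63 and 4.26% in WT and 3.33, 1.03 and 6.67% in DKO, with the groups overlapping. At 1.55 kb (chr2:155578001-155579000, 17 CpGs) WT stood at 52.5, 66.9 and 75.6% and DKO at 96.7, 90.6 and 80.6%. All DKO samples were higher, by 24.3 ± 8.21 points in the mean (quasi-binomial unadjusted p = 0.00277, adjusted p = 0.175). The larger difference of the opposite sign lay 6.55 kb downstream (chr2:155583001-155584000, 9 CpGs), where WT stood at 60, 65.5 and 50% and DKO at 31.8, 34.2 and 40%, from 22 to 50 reads (quasi-binomial adjusted p = 0.458). On the 4 CpGs covered in all 6 samples that difference was -9.33 points in place of -23.2.

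The Cd34 start was close to 0% over the whole 1 kb window. At its 30 CpGs WT stood at 2.56, 0 and 0% and DKO at 0, 0.674 and 0.704%. Another window near 0%, 37.5 kb downstream (chr1:196802001-196803000, 75 CpGs), stood at 0.738, 1.39 and 10.8% in WT and 1.75, 1.10 and 0.790% in DKO. WT replicate 3 stood apart from the other 5 samples, and without it the difference went from -3.09 to 0.151 points. The window beside it repeated this, at 0, 6.45 and 20.7% in WT and 3.92, 5.36 and 4.29% in DKO. The upstream flank of the start (chr1:196764001-196765000, 11 CpGs) stood at 44.6, 35.7 and 38.0% in WT and 43.1, 28.4 and 56.8% in DKO. At 3.49 kb downstream (chr1:196768001-196769000, 6 CpGs) every DKO sample was above every WT sample, at 16.7, 6.45 and 15.4% in WT and 26.8, 30.6 and 17.4% in DKO (12.1 ± 5.07 points; quasi-binomial adjusted p = 0.605). Over its 13 tested windows Cd34 had a median difference of -1.78 points, against 0.93 in all tested windows. The DKO mean was higher in 4 of the 13, against 58.2% of all tested windows. At the minimum of 10 reads, 25 Cd34 windows were tested, and their median difference was -0.395 points. Among these 25 the groups were apart upward in 3 (7.53% of all windows at that minimum) and downward in 0 (4.01%).

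In the Ly6a stretch 2 neighbouring windows formed a single dip. The first (chr15:74818001-74819000, 19 CpGs) stood at 18.1, 16.0 and 43.3% in WT and 29.2, 15.8 and 36.4% in DKO. Samples of both genotypes spread widely there, and replicate 3 was the highest of each. The second (chr15:74819001-74820000, 25 CpGs) stood at 2.84, 0 and 0% in WT and 3.68, 5.38 and 1.70% in DKO, with WT replicate 1 inside the DKO range. None of the 11 tested Ly6a windows had an unadjusted p under 0.05 by the quasi-binomial test, against 7.32% of all tested windows upward and 1.95% downward. In 8 of the 11 the DKO mean was higher, against 58.2% of all tested windows. Below the read minimum, a run of 3 windows at chr15:74826001-74829000 with 12 CpGs, chosen after its values were seen, stood at 44.7, 45.8 and 48.2% in WT and 66.2, 89.0 and 66.7% in DKO, from 47 to 82 reads. WT samples lay within a few points of each other and every DKO sample was above them. No test was made on the run as a whole. At the minimum of 10 reads, the quasi-binomial test gave an adjusted p of 0.427 for its window chr15:74826001-74827000. For chr15:74827001-74828000 the same test gave an adjusted p of 0.651. The last window of the run had as few as 8 reads in a sample and was not tested.

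**Figure D4:**
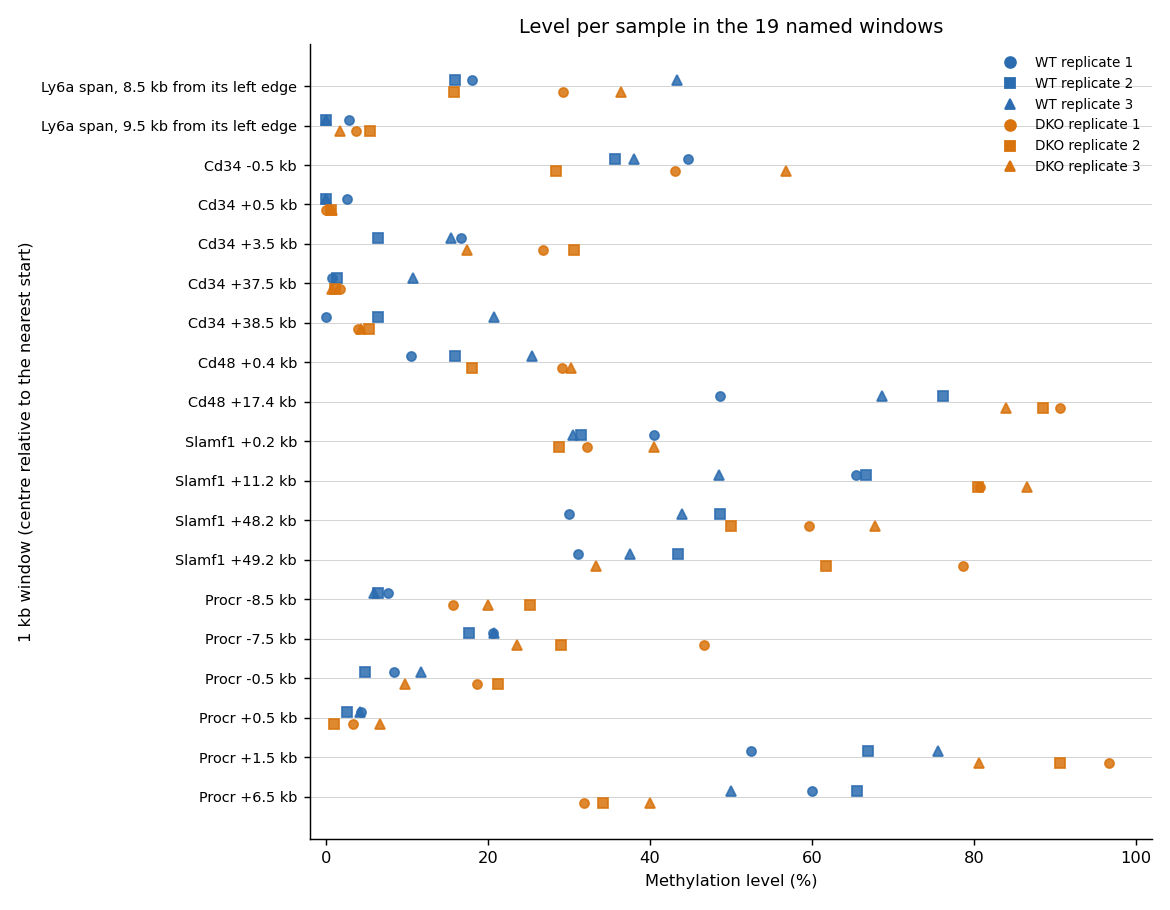
Methylation level (percent, x axis) of each sample in the 19 windows named by rule (y axis, kb from the nearest start or from the left edge of the Ly6a stretch); circles, squares and triangles are replicates 1, 2 and 3, blue WT and orange DKO. The groups do not overlap in the windows at Cd48 +17.4 kb, Slamf1 +11.2 and +48.2 kb, Cd34 +3.5 kb and Procr -8.5, -7.5 and +1.5 kb, all with DKO higher. At Procr +6.5 kb they do not overlap with DKO lower. The rule took up to 3 windows per stretch because their groups were apart. Separation among the named windows is thus partly set by the rule.

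Promoters of other surface proteins were read as a view of the cells in the gate. Kit, which codes for c-Kit, was at 0% in every sample, from 30 to 118 reads each. Its pooled counts were 0 of 205 in WT and 0 of 251 in DKO. Taken as separate reads these allow up to 1.46 and 1.20%, limits that can likewise be too low. Besides Procr and Cd34, 1 further gene of the 13 in the stem cell surface list had 20 reads in every sample: Cd9, a tetraspanin, at 0, 1.19 and 1.52% in WT and 1.61, 1.63 and 1.94% in DKO. These groups were apart by 0.825 points. The mitochondrial level was also higher in every DKO sample, and its part in this was not tested. Of 4 genes in the multipotent progenitor list, Cd48 and Flt3 were measured. Flt3, the cytokine receptor of lymphoid-primed progenitors, stood at 1.41, 3.90 and 0% in WT and 0, 7.76 and 0% in DKO, with the groups overlapping. Of the 7 SLAM family neighbours, Cd48 alone had 20 reads, with Slamf1 measured in its own stretch at fewer.

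Markers of mature cells, which lineage depletion targets, were mostly methylated where measured, apart from Tfrc. With 20 reads in every sample, 0 of 6 myeloid, 0 of 4 B cell, 1 of 4 T cell, 1 of 4 erythroid and 0 of 3 megakaryocyte promoters were available. Cd3e, a T cell receptor subunit, stood at 94.1, 86.2 and 76.9% in WT and 96.7, 95.9 and 84.6% in DKO. Tfrc, the transferrin receptor, which dividing cells carry, stood at 0% in 5 samples and 0.943% in DKO replicate 1. At a minimum of 10 reads, a setting chosen after the data were seen, 3 more were available. Elane, a granule protease, stood at 78.6, 66.7 and 77.5% in WT and 75.0, 100 and 79.3% in DKO. Cd79a, part of the B cell receptor, stood at 80, 79.5 and 60% in WT and 83.3, 100 and 84.6% in DKO, with the groups apart. Epor, the erythropoietin receptor, stood at 76.3, 50 and 68.4% in WT and 88.9, 60 and 84.0% in DKO. In Elane and Epor the groups overlapped, and their part in the differences at the 5 member genes was not tested. The same minimum added Cd27 to the stem cell list, at 0, 0 and 0% in WT and 0, 7.69 and 7.14% in DKO.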

How the data were processed

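Whole-genome bisulfite sequencing gave CpG methylation in 3 WT and 3 DKO samples of sorted mouse LSK cells. The authors deposited one table with the counts of methylated reads and of all reads at each of 20451903 CpGs in each sample. The submitters' processing notes name BSMAP 2.74 and mm9. For read filters, removal of PCR duplicates and trimming, nothing is given in the sources used here; any duplicates kept would raise the counting error. The table held 0 columns of other samples, 0 CpGs listed more than once and 0 values with more methylated than total reads. Positions are counted from 1.

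Read counts were summed over 1 kb windows, so a read counts at each CpG it covers. Windows with 3 or more CpGs and no sample under 20 reads were tested across all autosomes by quasi-binomial regression on genotype, with dispersion moderated as in limma's squeezeVar (limma 3.58.1, R 4.3.3; prior of 23.7 degrees of freedom, floor 1), an F test and Benjamini-Hochberg adjustment. Windows were called at an adjusted p under 0.05 and a difference of 10 points. The test was checked on simulated data. Levels of stretches and promoters were compared by two-sided exact permutation tests (smallest p = 0.1). Quasi-binomial p-values rest on a dispersion moderated with the prior of 23.7 degrees of freedom, which comes from all tested windows. They thus do not reflect the spread of the samples in a single window alone. The exact permutation p-values use only the levels of the samples compared. Python 3.11.15, numpy 2.4.6, scipy 1.17.1, pandas 2.3.3, numba 0.67.0 and matplotlib 3.10.9 were used.

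Of 32851 RefSeq promoter sequences, 19169 matched 1 place on their chromosome by the spacing of at least 5 CpGs, and 99.922% of these stood in the order of their neighbours. Members needed 3 CpGs within their stretch; none was placed for Ly6a. Named windows were the tested windows under 50%, up to 3 per stretch with the largest difference and groups apart, and every called window. The lists were LSK gate (Ly6a, Kit), stem cell surface (13 genes, among them Slamf1, Procr, Cd34, Cd27 and Cd9), multipotent progenitor surface (4 genes, among them Flt3 and Cd48), SLAM neighbours, and myeloid, B cell, T cell, erythroid and megakaryocyte markers. Members, lists and motifs were chosen with earlier results of these data known.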

Additional observations from a re-analysis of the deposited data

How the results depend on the processing

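The single called window, near Cd48, was called again with no minimum difference. With windows shifted by 500 bp 1 window of the stretches was called, whose position is not given here. The number called was 0 with at least 10 or 40 reads in every sample, in 500 bp windows, with limma on log2 ratios, with the replicate block and without any 1 sample, when 5 to 28 windows of the stretches had an unadjusted p under 0.05. On all autosomes the numbers called higher fell from 3798 to 303 at 10 reads, 269 at 40 reads, 29 to 779 without 1 sample, and 0 in 500 bp windows, with limma and with the replicate block, so 0 in the stretches tells little about them. Fisher's exact test on pooled reads, which ignores how samples of a group vary, called 11 of 99 (9 higher, 2 lower), and 43039 higher and 7035 lower of all 774732 windows. Samples of the same replicate number correlated at 0.00332 to 0.003592 in their deviations and those of other numbers at -0.002037 to -0.001358; each correlated best with its own number, a hint only, and the numbers were not taken to pair the samples. The direction turned for Cd34 with each CpG counted once (1.26 points for the stretch, 0.621 for its low windows), for the Ly6a low windows with a limit of 80% (-0.830 points) and without WT replicate 1 (-0.320) or WT replicate 2 (over the 6 fits without 1 sample -0.466 to 5.14), for the Cd34 promoter at 1 kb either side (-7.23) and for the Slamf1 promoter at 500 bp (5.39) and 1 kb (3.85). The wider extents take in other CpGs. Without 1 sample the promoter differences ran from 0 to 0.909 at Cd34, 0 to 2.53 at Procr and -3.33 to 0 at Slamf1, since each rests on 1 sample above 0, and from 8.68 to 19.2 at Cd48. Single windows that turned without 1 sample were those over the starts of Cd34 (-0.823 to 0.459 points), Slamf1 (-3.59 to 2.88) and Procr (-1.56 to 1.26), those at -0.514 kb from Cd34 (-3.73 to 10.5) and 37.5 and 38.5 kb from it (-4.88 to 0.151 and -9.05 to 1.30, positive without WT replicate 3), and the first Ly6a low window (-3.57 to 10.1). The Procr and the Slamf1 and Cd48 stretch differences kept their sign in all 11 alternatives run for each, but the groups overlapped for Procr on CpGs with a read in every sample (5.73 points) and for both where no sample had under 5 reads at a CpG (8.28 and 7.11 points, p = 0.4 and 0.3 by exact permutation). The Slamf1 and Cd48 low windows were apart on shared CpGs (6.27 points), with a limit of 80% (8.02) and with shifted windows (9.04). Low windows restricted to CpGs with at least 5 reads gave no value for Ly6a, Cd34 and Procr, since too few CpGs were left. The levels outside low windows, the 10-read counts and the runs were chosen after the data were seen. At 20 separate reads the counting error alone spans 29.9 to 70.1% around 50%.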
